A study of Macaca mulatta with 6 samples.

Results

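The genes described here are the HOX cluster genes of the rhesus monkey (Macaca mulatta), that is, every gene of the count table whose symbol begins with HOXA, HOXB, HOXC or HOXD followed by a digit. The table held 16 such genes among 17795, of which 15 are described here. The libraries were bulk RNA sequencing of cultured spermatogonial stem cells (SSCs), the germ cells of the testis that renew themselves and feed spermatogenesis, grown with platelet-derived growth factor in 3 libraries (SSC PDGF+) and without it in 3 (SSC PDGF-). In both groups replicate 1 was labelled batch 1 and replicates 2 and 3 were labelled batch 2. The labels gave no allele or treatment other than PDGF, and named the tissue only as testis. Per the methods of the study, SSCs were grown as droplets of a basement membrane gel under a serum-containing medium with GDNF, EGF, LIF, bFGF and Wnt3a; that the SSC PDGF- cultures received the same recipe without PDGF was read from the group names. The age and number of the donor animals behind these cultures were not given in the sources used here, nor whether replicates 2 and 3 were separate cultures, so the p-values measure only the spread between these libraries.

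HOX genes encode transcription factors that bind DNA through a homeodomain, and they lie in 4 clusters in which the order of the genes along the chromosome follows the order of their domains along the body axis. Genes with low numbers are used toward the head and genes with high numbers toward the tail, the limbs and the urogenital tract. Genes with the same number in different clusters are copies of a common ancestor, called paralogs. Fibroblasts and other mesenchymal cells keep the HOX combination of the body region they came from in adult tissue and in culture, whereas HOX genes are kept largely silent by polycomb proteins in cells that do not use them.

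The RefSeq annotation of the rhesus genome build Mmul_10 placed all 15, and 22 further annotated HOX genes were not analysed here. The 15 were HOXA4, HOXA7, HOXA9 and HOXA13 on chromosome 3, HOXB1 and HOXB8 on chromosome 16, HOXC6, HOXC10, HOXC11 and HOXC12 on chromosome 11, and HOXD8, HOXD9, HOXD10, HOXD11 and HOXD12 on chromosome 12. All lie on the plus strand of that build. The HOXD genes with counts are neighbours, HOXD11 at chr12:63220826-63223932, HOXD10 at chr12:63230977-63234193, HOXD9 at chr12:63234452-63239177 and HOXD8 at chr12:63243947-63246989. HOXA9 lies at chr3:87935601-87942576 and HOXA4 at chr3:87974223-87976548. The submitters' processing notes name both Mmul_10 and an older build, Mmul_8.0.1, without saying which was used for the counts, and all positions given here are from Mmul_10. In that annotation exons of HOXA9 and HOXC10 overlap a transcript on the other strand, and exons of HOXB8 overlap those of HOXB7 on the same strand. The strand setting of the counting was not given in the sources used here, so reads of these genes could not be told apart from reads of their partners.

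The homeobox, the part of the gene that encodes the homeodomain, is the stretch in which HOX genes are most alike, so it is shown for 6 members on which the comparisons turn. Each line gives the last 60 bases of the homeobox in the RefSeq transcript of Mmul_10, 5′ to 3′ on the plus strand, and the capitals mark the bases that encode the conserved motif of the third, DNA-contacting helix.
HOXD9: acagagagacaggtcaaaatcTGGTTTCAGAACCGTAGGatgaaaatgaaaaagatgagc
HOXC10: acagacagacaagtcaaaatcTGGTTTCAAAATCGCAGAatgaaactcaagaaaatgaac
HOXD10: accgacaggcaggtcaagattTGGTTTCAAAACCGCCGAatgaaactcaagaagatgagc
HOXD11: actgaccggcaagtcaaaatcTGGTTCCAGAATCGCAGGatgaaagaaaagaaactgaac
HOXA4: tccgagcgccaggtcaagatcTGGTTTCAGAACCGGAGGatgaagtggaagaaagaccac
HOXD8: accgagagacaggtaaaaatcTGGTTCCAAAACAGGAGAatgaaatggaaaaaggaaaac
These stretches lie in the coding exons at chr12:63238348-63238407 for HOXD9, chr11:53591156-53591215 for HOXC10, chr12:63233390-63233449 for HOXD10, chr12:63223323-63223382 for HOXD11, chr3:87975631-87975690 for HOXA4 and chr12:63245735-63245794 for HOXD8. The motif was encoded in these 6 members with synonymous base changes between them. Over the whole homeobox, the paralogs HOXC10 and HOXD10 shared 82.8% of their bases and HOXC11 and HOXD11 80.6%, more than the chromosomal neighbours HOXD8 and HOXD9 (62.2%), HOXD9 and HOXD10 (71.1%) or HOXD10 and HOXD11 (63.3%). These paralog pairs are therefore closer in sequence than these neighbours, which did not hold for every pair. Of the other paralog pairs compared, HOXB8 and HOXD8 shared 77.2% and HOXC12 and HOXD12 71.1%. HOXA7 and HOXC6, which are not paralogs, shared 84.4%. The longest run of identical coding bases between any pair of the members compared was 29 bases, and none of the 9 members that were tested had the same counts in all 6 libraries as any other gene of the table.

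Total counts per library ranged from 10593805 to 14102695 and were higher in the 3 SSC PDGF+ libraries. Values are given below as counts, or as CPM, counts per 1000000 counts of the library, with the totals corrected by TMM. Markers of undifferentiated spermatogonia summed to 128 to 136 CPM in SSC PDGF+ and 151 to 179 CPM in SSC PDGF-, nearly all of it from ID4, and NANOS2, a defining marker of the most primitive spermatogonia, was at 0 in all 6 libraries. Markers of fibroblasts and stroma summed to 14095 to 19409 CPM in SSC PDGF+ and 16947 to 19129 CPM in SSC PDGF-. In the spermatogonial list DDX4 stood at 0.608, 0.156 and 0.150 CPM in SSC PDGF+ and 1.48, 3.64 and 1.27 CPM in SSC PDGF-. GFRA1, ZBTB16, SALL4, PIWIL4 and MAGEA4 had 0 to 10 counts per library. The libraries thus held abundant stromal transcripts and, apart from ID4, little of these spermatogonial markers. HOX values are those of the whole culture. In bulk samples, fewer cells of a type and less RNA per cell cannot be told apart.

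Of the 15 HOX genes, 9 passed the filter on low counts and were tested, and 6 did not. HOXA13, HOXB1, HOXC12 and HOXD12 had 0 counts in all 6 libraries, which allows a level of up to 0.0407 CPM over the series (3 counts of the summed totals, counting error only). HOXA13 and HOXD12 pattern the digits and the urogenital tract, and HOXB1 patterns the hindbrain. HOXB8, a trunk gene also used in blood cell precursors, had 1 count in SSC PDGF+, in replicate 1, and in SSC PDGF- 5, 3 and 0 counts. The ratio of its pooled counts per total, SSC PDGF- over SSC PDGF+, was 9.97 with a 95% exact binomial interval of 1.34 to 442, which covers counting error only. HOXC11, a gene of the tail end of its cluster, had 6 counts, all in SSC PDGF- replicate 2. Neither of the 2 cluster B members described, of 10 annotated, had a level that could be tested.

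The members described from the 4 clusters contributed unequally, and they are only part of each cluster. The 15 genes together took 92.8, 106 and 103 CPM in SSC PDGF+ replicates 1 to 3 and 156, 176 and 195 CPM in SSC PDGF-. Cluster D held most of it, with 74.2%, 77.2% and 76.8% of the HOX counts in SSC PDGF+ against 81.9%, 86.5% and 84.5% in SSC PDGF-. HOXD9 and HOXD10 alone made up 56.3% to 64.6% of the HOX counts in SSC PDGF+ and 68.5% to 75.5% in SSC PDGF-, and the groups did not overlap. The members of cluster C summed to 14.2 to 15.5 CPM in SSC PDGF+ and 9.10 to 14.3 CPM in SSC PDGF-, and those of cluster A to 8.37 to 9.62 CPM and 14.4 to 15.97 CPM. These sums cover only the members described.

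Levels of different genes were compared per kilobase of their longest RefSeq transcript. HOXD10 was the highest member in both groups, at 11.7 ± 0.762 CPM per kilobase in SSC PDGF+ and 27.2 ± 2.1 in SSC PDGF- (mean ± SD, n = 3 each). HOXD9 followed at 9.14 ± 2.14 and 17.7 ± 4.57 CPM per kilobase, below HOXD10 with no overlap between the libraries of the same group. HOXC6 (5.30 and 4.53 CPM per kilobase) and HOXD8 (5.10 and 6.09) came next, overlapped each other, and stood apart from HOXD9 above them and from HOXA7 below them (1.30 and 2.09). From HOXA7 downward each gene overlapped the next in the order, except HOXD11 over HOXA9 in SSC PDGF+ and HOXA9 over HOXC10 in SSC PDGF-. HOXA4, HOXC10, HOXD11 and HOXA9 lay between 0.435 and 1.09 CPM per kilobase in SSC PDGF+, and HOXD11, HOXA9, HOXC10 and HOXA4 between 0.390 and 1.80 in SSC PDGF-. Among the members described, those with the highest levels were therefore HOXD8, HOXD9, HOXD10 and HOXC6. The order depends on the annotated transcript length, which is the longest for HOXA9.

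**Figure D1:**
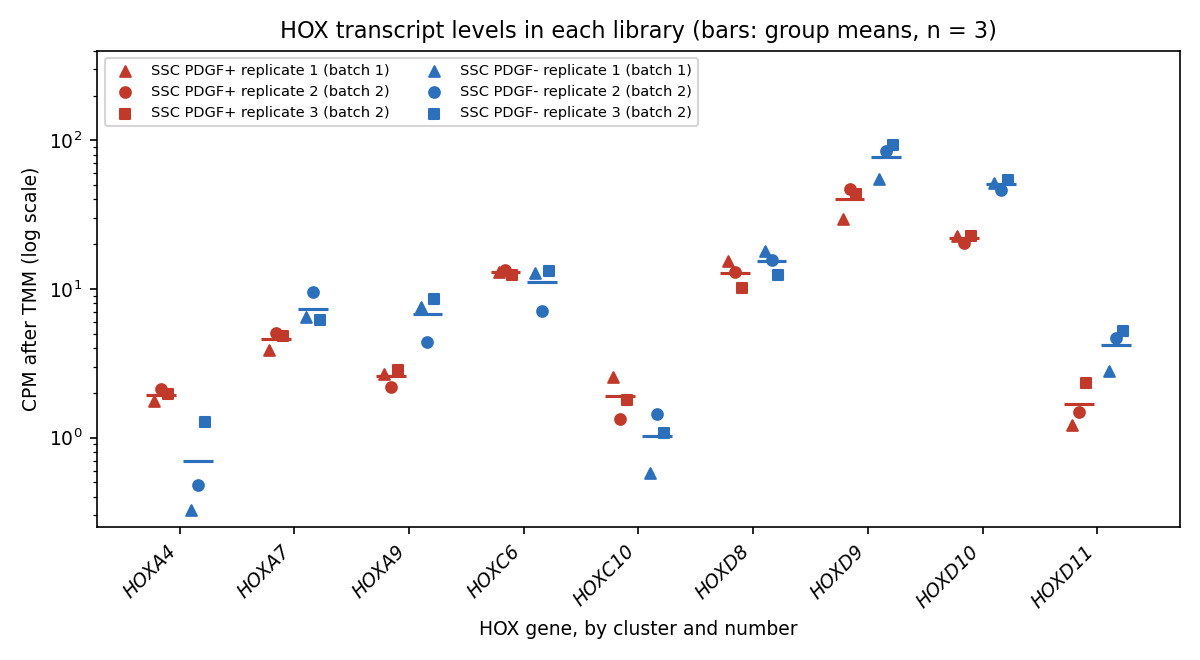
Level of the 9 tested HOX genes in each of the 6 libraries, in CPM on a log axis, ordered by cluster and number, with SSC PDGF+ in red and SSC PDGF- in blue, triangles for batch 1, circles and squares for replicates 2 and 3 of batch 2, and a bar at each group mean. HOXD9 and HOXD10 lie highest, and in HOXA7, HOXA9, HOXD9, HOXD10 and HOXD11 the 3 SSC PDGF- libraries all lie above the 3 SSC PDGF+ libraries.

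The first comparison asked how the HOX genes differed between cultures with and without PDGF. HOXA9, HOXD9, HOXD10 and HOXD11, all genes of the tail-side part of their clusters, were lower in SSC PDGF+ by 1.94- to 2.65-fold. No HOX gene was called higher. HOXA4, HOXC6 and HOXC10 had positive differences and HOXA7 and HOXD8 negative ones, none of which passed the test. The test was edgeR's quasi-likelihood test over all 11539 genes that passed the filter, with a Benjamini-Hochberg adjusted p under 0.05 as the call.

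HOXD10, which patterns the lumbar spinal cord and the limb, had 22.9, 20.3 and 22.5 CPM in SSC PDGF+ and 51.9, 46.6 and 54.4 CPM in SSC PDGF-. Each SSC PDGF- library was above all 3 SSC PDGF+ libraries, and the libraries within a group lay close together. The means were 21.9 ± 1.43 and 51.0 ± 3.95 CPM (SD, n = 3 each), a 2.33-fold lower level in SSC PDGF+. The log2 difference, SSC PDGF+ minus SSC PDGF-, was -1.22 (SE 0.15, edgeR adjusted p = 0.00148), and it was -1.18 within batch 1 and -1.24 within batch 2. HOXD10 was the member with the smallest adjusted p, and it passed the test with each of the 6 libraries left out in turn.

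HOXD9, its neighbour and the HOX gene with the most counts, had 29.4, 46.9 and 43.8 CPM in SSC PDGF+ and 54.9, 85.0 and 92.9 CPM in SSC PDGF-. The groups did not overlap, and replicate 1 was the lowest library of each group. The log2 difference was -0.95 (SE 0.25, edgeR adjusted p = 0.0338), from 77.6 ± 20.01 CPM in SSC PDGF- to 40.0 ± 9.37 CPM in SSC PDGF+. Within the batches it was -0.90 and -0.97. The call was lost with any 1 library left out other than SSC PDGF- replicate 1, at edgeR adjusted p from 0.0591 to 0.127. Without SSC PDGF- replicate 1 the edgeR adjusted p was 0.0058. These fits held no batch term, and HOXD9 also differed between the batches, as given below.

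HOXD11, which with its paralogs shapes the forearm and the kidney, had 18, 19 and 31 counts in SSC PDGF+ against 34, 49 and 53 in SSC PDGF-, that is 1.22, 1.49 and 2.33 CPM against 2.79, 4.69 and 5.19 CPM. The groups did not overlap. The log2 difference was -1.33 (SE 0.38, edgeR adjusted p = 0.0456), with -1.18 and -1.39 within the batches. Among the fits with 1 library left out, this call too was kept only without SSC PDGF- replicate 1 (edgeR adjusted p = 0.0175). It was lost without any other library, at edgeR adjusted p of 0.0569 to 0.153, and in limma-voom, at an adjusted p of 0.0532. None of these fits held a batch term.

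HOXA9, a gene of blood progenitors and of the trunk, had 40, 28 and 38 counts in SSC PDGF+ against 92, 46 and 87 in SSC PDGF-, or 2.70, 2.19 and 2.85 CPM against 7.56, 4.41 and 8.52 CPM. The lowest SSC PDGF- library, replicate 2, was still above all SSC PDGF+ libraries. The log2 difference was -1.40 (SE 0.31, edgeR adjusted p = 0.0177), a 2.65-fold lower level in SSC PDGF+, with -1.47 and -1.28 within the batches. The call was lost without SSC PDGF+ replicate 2 (0.0722), SSC PDGF+ replicate 3 (0.0545) or SSC PDGF- replicate 3 (0.0717), all as edgeR adjusted p. HOXA9 and its paralog HOXD9 were thus both lower.

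HOXA7 and HOXA4 did not pass the test although their groups did not overlap. HOXA7, a gene of the thoracic region, had 3.92, 5.08 and 4.81 CPM in SSC PDGF+ and 6.49, 9.48 and 6.17 CPM in SSC PDGF- (log2 difference -0.68, SE 0.26, edgeR adjusted p = 0.105). HOXA4, a gene of the neck region, had 26, 27 and 26 counts in SSC PDGF+ against 4, 5 and 13 in SSC PDGF-, and was the only member with all SSC PDGF+ libraries above all SSC PDGF- libraries. Its log2 difference was 1.5 (SE 0.51, edgeR adjusted p = 0.0786), and it ranged from 1.13 to 2.25 with 1 library left out, with a call only without SSC PDGF- replicate 3 (2.25, edgeR adjusted p = 0.0330). HOXA4 was above the count cutoff in 3 SSC PDGF+ libraries and 1 SSC PDGF- library, so it passed the filter through the group in which it was higher. With the replicate block, which pairs libraries of the same number, both passed: HOXA4 at 1.56 (edgeR adjusted p = 0.0151) and HOXA7 at -0.67 (edgeR adjusted p = 0.0160).

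The remaining tested members overlapped between the groups. HOXC6, a thoracic gene, had 12.96, 13.4 and 12.4 CPM in SSC PDGF+ and 12.9, 7.09 and 13.2 CPM in SSC PDGF-. Only SSC PDGF- replicate 2 was low. HOXD8 had 15.4, 13.1 and 10.2 CPM against 18.0, 15.7 and 12.4 CPM, with the libraries in the same order in both groups. HOXC10, a hindlimb gene and the paralog of HOXD10, had 2.57, 1.33 and 1.80 CPM against 0.575, 1.44 and 1.08 CPM. The log2 differences were 0.22 (SE 0.26) for HOXC6, -0.26 (SE 0.23) for HOXD8 and 0.90 (SE 0.46) for HOXC10, with edgeR adjusted p of 0.579, 0.466 and 0.212. The paralogs HOXC10 and HOXD10 had differences of opposite sign, of which only that of HOXD10 was called. HOXD8, next to HOXD9 on the chromosome, had a small difference beside its neighbours: the ratio of HOXD10 to HOXD8 counts was 1.49, 1.55 and 2.21 in SSC PDGF+ against 2.89, 2.97 and 4.37 in SSC PDGF-, and these ranges did not overlap. The ratio of HOXD9 to HOXD8 counts was 1.91, 3.59 and 4.29 against 3.05, 5.41 and 7.46, and its ranges overlapped, although within each pair of same-numbered libraries it was higher in SSC PDGF-, by 1.60, 1.51 and 1.74 times. Both ratios were lowest in replicate 1 of each group.

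Over the members, 4 of 9 tested (44.4%) were called lower and 0 higher, where 10.7% of all genes tested were called lower, 7.61% higher and 18.3% in either direction. The median log2 difference was -0.68 over the 9 members and 0.02 over all genes. The groups did not overlap for 6 of 9 members (66.7%), and for 37.6% of all genes. The difference had the same sign in both batches for 9 of 9 members and for 84.8% of all genes. With the replicate block 1 member was higher and 5 were lower, when 3587 of all genes (31.1%) were higher and 3347 (29%) lower, against 878 and 1230 without it. With replicates 2 and 3 of each group summed into 1 library and no batch term, HOXD10 was the only member called (edgeR adjusted p = 0.0419). In that fit 4.06% of all genes were called lower. With batch as a term in the summed fit, 5 members were lower and 1 was higher. Of all 11992 genes tested there, 3420 were lower and 3669 higher.

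**Figure D2:**
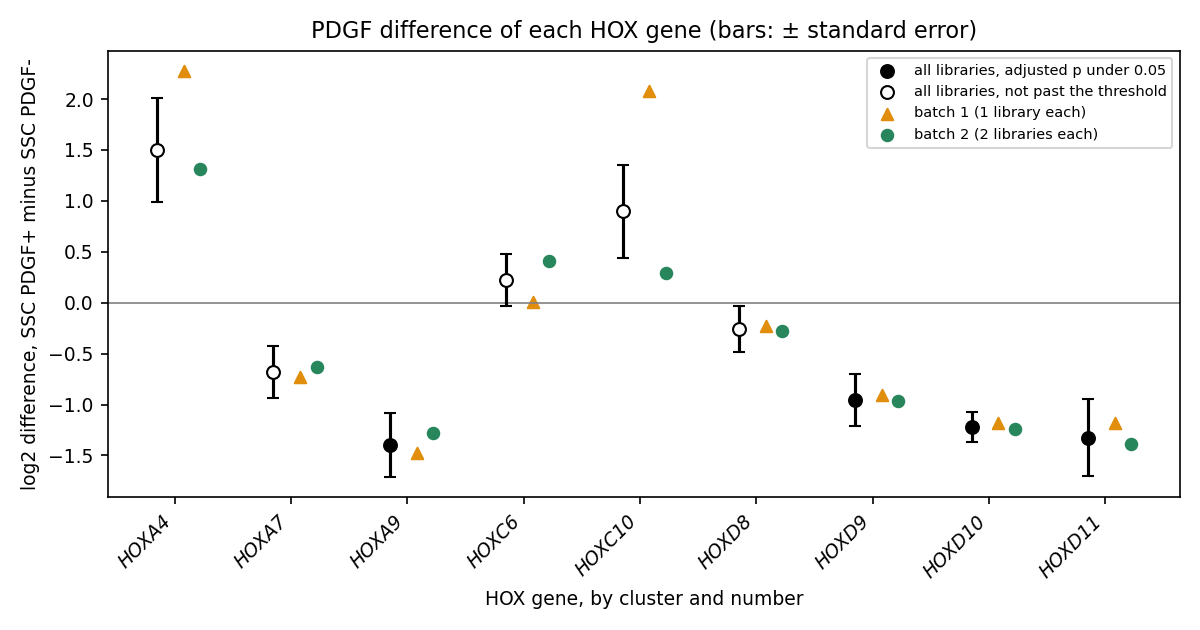
Log2 difference between SSC PDGF+ and SSC PDGF- for the 9 tested HOX genes, ordered by cluster and number, with bars of 1 SE from edgeR, filled black symbols for genes with an adjusted p under 0.05, triangles for batch 1 alone and green circles for batch 2 alone. HOXA9, HOXD9, HOXD10 and HOXD11 lie between -1.40 and -0.95, and the positive differences of HOXA4, HOXC6 and HOXC10 are not called.

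Markers of smooth muscle, epithelium and spermatids had lower sums in SSC PDGF+, the direction of these 4 HOX genes. The 5 markers of smooth muscle and peritubular myoid cells summed to 369 to 478 CPM in SSC PDGF+ and 696 to 908 CPM in SSC PDGF-, and 2 of them, ACTA2 and DES, were called lower. Of 6 epithelial markers fixed, 5 were in the table, summed to 35.6 to 51.9 CPM against 87.3 to 122 CPM, and 3 were called lower; 1 of these, CDH1, was above the count cutoff in 0 SSC PDGF+ and 3 SSC PDGF- libraries and was tested only through the latter. Of 8 spermatid markers 5 were in the table and summed to 48.9 to 77.0 CPM against 417 to 689 CPM, with 3 called lower. Of the 7 stromal markers, 2 (COL3A1 and PDGFRA) were called lower and the sums overlapped. Over all genes 10.7% were called lower in this comparison. CYP11A1 among the Leydig cell markers and CD3E of T cells were at 0 in all libraries. The sums of the Sertoli cell markers (3.44 to 5.86 against 5.08 to 6.37 CPM), the endothelial markers (11.6 to 15.01 against 8.29 to 13.6 CPM) and the macrophage markers (17.0 to 19.5 against 11.6 to 18.4 CPM) overlapped, and the Leydig cell markers, mostly STAR, went the other way, at 259 to 324 against 216 to 258 CPM with no overlap and 0 called. Of the markers of undifferentiated spermatogonia, whose sums were lower in SSC PDGF+ as given above, DDX4 was called lower (log2 difference -2.72, edgeR adjusted p = 0.0284), and it was above the count cutoff in 0 SSC PDGF+ and 3 SSC PDGF- libraries. Under the replicate block ID4 was called lower (-0.32, edgeR adjusted p = 4.95e-05) and STAR higher (0.33, edgeR adjusted p = 6.07e-06). That fit also called COL1A1 (0.60), COL1A2 (0.18) and PECAM1 (0.84) higher. It called DCN (-0.62), LUM (-0.42), TAGLN (-0.69), CNN1 (-0.95) and KRT19 (-0.95) lower. Over all genes it called 31.1% higher and 29% lower. The part of these cell types in the HOX differences was not tested.

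The second comparison asked how the HOX genes differed between batch 1 (replicate 1 of each group) and batch 2 (replicates 2 and 3), with the group as a term of the fit. HOXD9 was lower in batch 1 and HOXD8 was higher, so that neighbouring genes of cluster D differed in opposite directions. The 2 members called were 22.2% of the 9 tested, where 57.2% of all genes were called between the batches, 27.9% higher and 29.3% lower in batch 1. The share of HOX genes called was thus below that of all genes. The median log2 difference, batch 1 minus batch 2, was 0.07 over the members and 0.00106 over all genes.

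The mean of HOXD9 was 42.2 CPM in batch 1 and 67.1 CPM in batch 2, and in each group its batch 1 library was below both batch 2 libraries. The log2 difference was -0.66 (SE 0.08, edgeR adjusted p = 1.95e-07), with -0.63 in SSC PDGF+ and -0.69 in SSC PDGF-. It was called with each library left out in turn, but a correction for GC content and transcript length reduced it to -0.23 (edgeR adjusted p = 0.0466). HOXD8 was the reverse, at a mean of 16.7 CPM in batch 1 and 12.9 CPM in batch 2, with the batch 1 library the highest of each group. Its log2 difference was 0.38 (SE 0.15, edgeR adjusted p = 0.0399), with 0.41 in SSC PDGF+ and 0.36 in SSC PDGF-. This call was lost without SSC PDGF+ replicate 1 (0.220), SSC PDGF+ replicate 3 (0.130), SSC PDGF- replicate 1 (0.140) or SSC PDGF- replicate 3 (0.0917), all as edgeR adjusted p.

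HOXD11 was at 2.00 CPM in batch 1 and 3.43 CPM in batch 2, and its log2 difference of -0.75 (SE 0.37) was not called (edgeR adjusted p = 0.0841). With the GC and length correction it was 0.03. HOXA4, HOXA7, HOXA9, HOXC6, HOXC10 and HOXD10 lay between -0.55 and 0.17, at edgeR adjusted p from 0.309 to 0.915. HOXC10 was the only tested member whose batch difference had opposite signs in the 2 groups, 0.71 in SSC PDGF+ and -1.07 in SSC PDGF-.

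**Figure D3:**
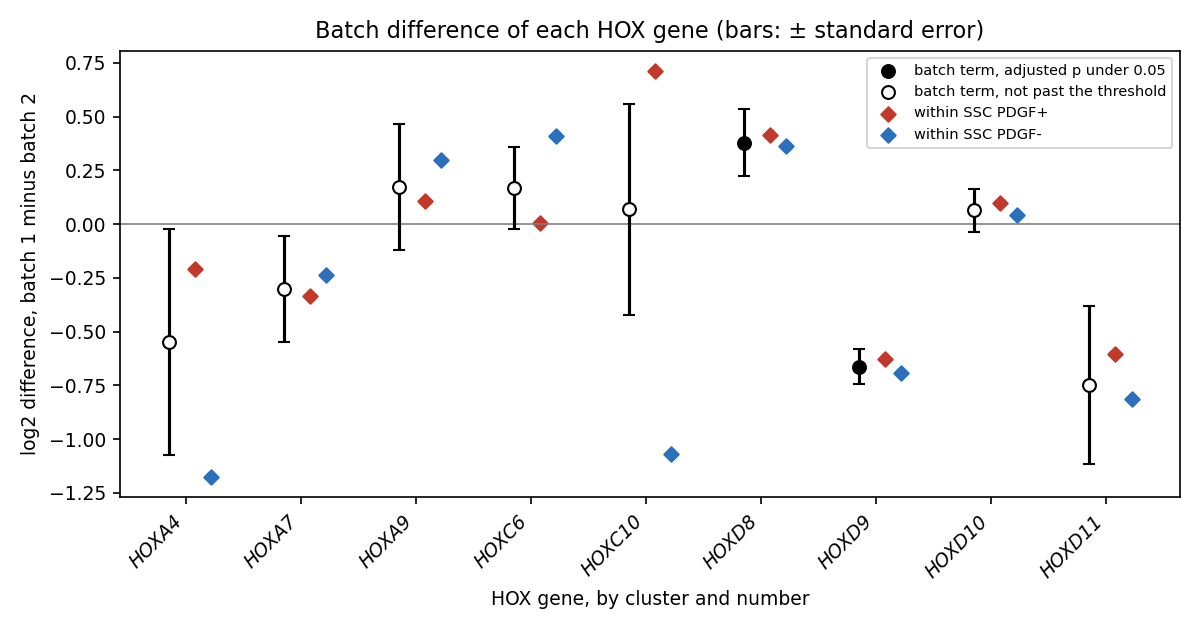
Log2 difference between batch 1 and batch 2 for the 9 tested HOX genes, ordered by cluster and number, with bars of 1 SE from edgeR, filled black symbols for genes with an adjusted p under 0.05, and diamonds for the difference within each group. HOXD8 lies above 0 and HOXD9 below it, and these are the members called.

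Whether the PDGF difference itself differed between the batches was tested with an interaction term. No gene was called by edgeR at an adjusted p under 0.05 (0 of 11539, 0%), and none by DESeq2, while 526 genes and 0 HOX genes had an unadjusted p under 0.05 in edgeR. The lowest edgeR adjusted p of any gene was 0.865. Among the members described the lowest unadjusted p belonged to HOXC10 (interaction 1.82, SE 0.99, edgeR adjusted p = 0.968). With 1 library per group in batch 1, the interaction of the 4 called members, from 0.06 to 0.17 for HOXD9, HOXD10 and HOXD11 and -0.13 for HOXA9, had SEs of 0.16 to 0.76.

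HOX proteins bind DNA together with PBX and MEIS family partners, whose genes were listed as cofactors. In the PDGF comparison 7.61% of all genes were called higher and 10.7% lower, which applies to each list below. Of 11 cofactor genes 10 were tested, 0 were called higher with PDGF and 1 was called lower. This was MEIS1, a direct partner of the tail-side HOX proteins, at 25.7, 21.3 and 26.8 CPM in SSC PDGF+ and 41.8, 36.4 and 34.8 CPM in SSC PDGF- (log2 difference -0.61, SE 0.16, edgeR adjusted p = 0.0366). All SSC PDGF- libraries were above all SSC PDGF+ libraries, but the call was lost with each of the 6 libraries left out in turn. PBX2 stood at 78.7 ± 10.4 and 86.1 ± 13.2 CPM and MEIS3 at 102 ± 30.2 and 157 ± 43.8 CPM, in SSC PDGF+ and SSC PDGF- (SD, n = 3 each), and these were not called (edgeR adjusted p = 0.632 and 0.161). With the replicate block 2 of the 10 cofactor genes were higher and 4 lower, MEIS3 among the latter (-0.64). In that fit 31.1% of all genes were higher and 29% lower. The median log2 difference of the list was -0.08.

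Polycomb proteins keep HOX genes silent and trithorax and MLL proteins keep them active. Of 23 polycomb genes tested 0 were higher and 1 was lower with PDGF, namely CBX7, a reader of the polycomb mark, at 3.98, 5.79 and 4.28 CPM in SSC PDGF+ and 10.7, 13.2 and 13.7 CPM in SSC PDGF-. Its groups did not overlap, the log2 difference was -1.42 (SE 0.23, edgeR adjusted p = 0.00488), and it was called with each library left out. EZH2, the enzyme that writes the mark, stood at 27.4 ± 2.97 and 31.0 ± 5.42 CPM (SD, n = 3 each; edgeR adjusted p = 0.535). None of the 12 trithorax, MLL and H3K27 demethylase genes was called; KMT2A, the MLL gene best known to maintain HOX expression, stood at 18.8 ± 2.06 and 12.6 ± 1.68 CPM (SD, n = 3 each; edgeR adjusted p = 0.0654). With the replicate block, where 31.1% of all genes were higher and 29% lower, 8 of 23 polycomb genes were higher and 6 lower, near the shares of all genes. Of the 12 trithorax, MLL and H3K27 demethylase genes 5 were then higher, KMT2A among them (0.58, edgeR adjusted p = 0.0011), and 0 lower. The median log2 differences of these lists were 0.09 and 0.11.

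Retinoic acid turns on head-side HOX genes in the embryo. Of 13 retinoic acid genes tested 0 were higher and 3 were lower with PDGF, beside 7.61% and 10.7% of all genes. The median log2 difference was -0.29. ALDH1A1, which makes retinoic acid, had 99.9, 84.5 and 82.3 CPM in SSC PDGF+ and 453, 365 and 365 CPM in SSC PDGF- (log2 difference -2.15, SE 0.15, edgeR adjusted p = 1.47e-04), and was called with each library left out. CYP26B1, which degrades retinoic acid, had 6.01, 5.16 and 6.16 CPM against 8.62, 12.5 and 9.80 CPM (log2 difference -0.83, SE 0.22, edgeR adjusted p = 0.0360). RXRB, a nuclear receptor partner, had 39.1, 54.3 and 47.1 CPM against 60.3, 82.2 and 76.4 CPM (log2 difference -0.64, SE 0.18, edgeR adjusted p = 0.0471). The groups did not overlap for any of the 3, and CYP26B1 and RXRB each kept the call in 1 of 6 fits with a library left out. A gene that makes retinoic acid and one that degrades it were therefore both lower with PDGF, while other enzymes that make it were not called: ALDH1A3 stood at 65.5 ± 8.09 and 46.2 ± 9.64 CPM with no overlap (edgeR adjusted p = 0.105), and ALDH1A2 at 1.17 ± 0.235 and 0.796 ± 0.621 CPM (SD, n = 3 each; edgeR adjusted p = 0.530). With the replicate block 3 of the 13 genes were higher and 6 lower, beside 31.1% and 29% of all genes. ALDH1A3 (0.51, edgeR adjusted p = 9.05e-06) and STRA6, which takes retinol into cells (0.70, edgeR adjusted p = 5.07e-10), were among those higher.

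Other homeobox genes of regional identity, outside the clusters, were mostly too low or not among the genes analysed: of 35 listed, 16 were in the table and 8 were tested, of which 1 was higher and 2 were lower with PDGF. SIX4, a muscle and placode gene, was higher, at 43.4, 32.1 and 31.6 CPM in SSC PDGF+ and 18.9, 14.3 and 15.6 CPM in SSC PDGF- (log2 difference 1.14, SE 0.20, edgeR adjusted p = 0.00646). MSX2, a limb and skull gene downstream of BMP signalling, was lower, at 5.13, 6.10 and 7.06 CPM against 17.1, 22.5 and 22.6 CPM (log2 difference -1.77, SE 0.21, edgeR adjusted p = 0.00139). DLX3, a gene of skin and placenta, was lower too, at 5, 12 and 9 counts against 56, 50 and 37 (log2 difference -2.74, SE 0.40, edgeR adjusted p = 0.00329). DLX3 was above the count cutoff in 1 SSC PDGF+ library and 3 SSC PDGF- libraries, so it passed the filter through the group in which it was higher. The groups of all 3 genes stood apart, and each was called with any library left out. In the fit with the replicate block 1 gene of this list was higher and 3 were lower, beside 31.1% and 29% of all genes. Of the 8 ParaHox and EVX genes listed, relatives of the HOX genes, GSX1, GSX2 and CDX4 were in the table and had 0 counts in every library.

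**Figure D4:**
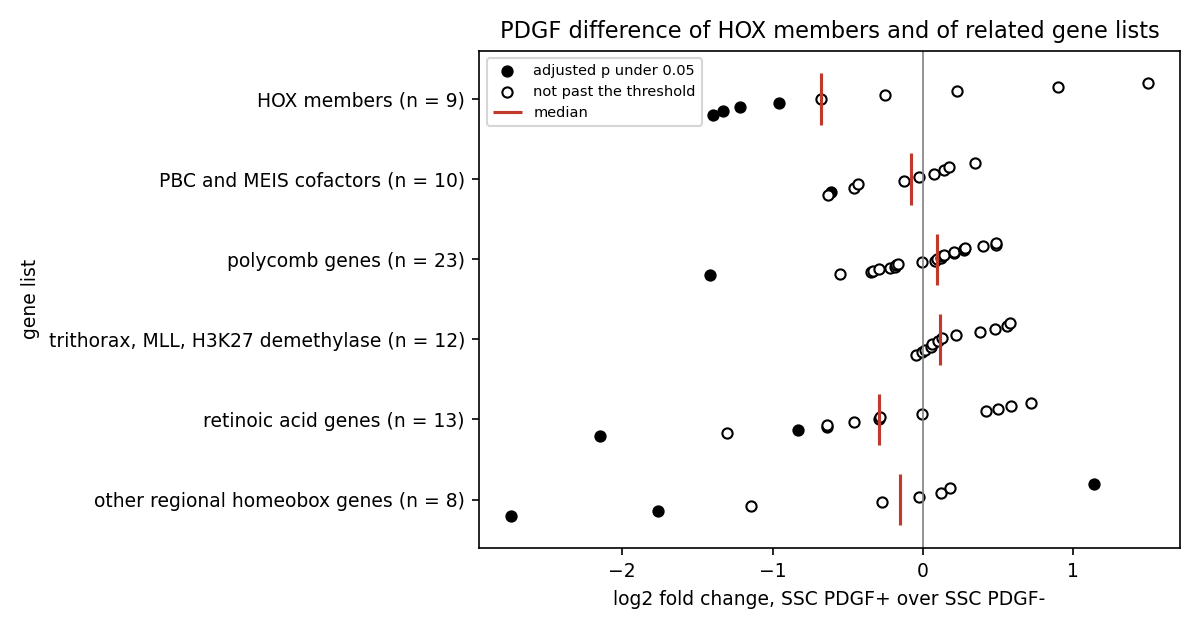
Log2 difference between SSC PDGF+ and SSC PDGF- for the tested genes of the HOX clusters and of the related lists, 1 point per gene, with filled points for an edgeR adjusted p under 0.05 and a line at the median of each list. The HOX median lies at -0.68, the retinoic acid median at -0.29, that of the other homeobox genes at -0.15, and those of the cofactor, polycomb and trithorax lists between -0.08 and 0.11.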

How the data were processed

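The authors deposited 1 table of gene counts, not normalized, for 6 bulk RNA libraries; 34 values of 13 genes were not whole, so these deposited expected counts were rounded before testing. The submitters' processing notes name fastp, HISAT2 2.1.0, SAMtools and featureCounts 2.0.1. Of 17795 genes, 3004 had no counts.

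Genes were filtered with filterByExpr by group and tested in edgeR 4.0.16 (R 4.3.3) after TMM scaling, on group alone for PDGF, on batch with group for the batches, and with an interaction term. SEs are |log2 difference| divided by the square root of F, within-batch differences add 0.5 counts, and BH adjustment covers all tested genes. Alternatives used DESeq2 1.42.0, limma 3.58.1, other scalings and filters, and libraries left out. Same-numbered libraries deviated together (r = 0.728, 0.350 and 0.374 for replicates 1, 2 and 3). The labels give replicate 1 of both groups the same batch. Within batch 2, SSC PDGF+ replicate 2 with SSC PDGF- replicate 3 gave r = 0.393, and SSC PDGF+ replicate 3 with SSC PDGF- replicate 2 gave 0.360. The values thus do not set the same-numbered pairs of batch 2 apart from the other pairs. A fit with the replicate block is given where it changes a call. Replicates 2 and 3 differed by more than counting noise (chi-square per degree of freedom 3.51 with PDGF and 3.70 without) but far less than from replicate 1 (50.2 to 62.7); they were kept as separate libraries as labelled, which does not show separate cultures, and were summed in an alternative. Some items are not reported here, 1 HOX gene among them; every other HOX gene is named; of each related list the called genes are named, up to 3 in each direction; PBX2, MEIS3, EZH2, KMT2A, ALDH1A2, ALDH1A3 and STRA6 were named in addition after their values were seen. Cell type markers came from a further fixed list. The members and lists were chosen with earlier results of these data known. Transcript lengths, GC content and homeobox sequences came from RefSeq on Mmul_10 (17062 genes matched). The scripts were tested on simulated data.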

Additional observations from a re-analysis of the deposited data

How the results depend on the processing

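The number of HOX genes called higher with PDGF, 0, became 1 at an adjusted p under 0.1, with the replicate block, with batch as a term, with replicates 2 and 3 summed and batch as a term, and with the replicate block plus a GC and length correction, and was 0 to 1 with 1 library left out. The number called lower, 4, became 1 at an adjusted p under 0.01, 1 with replicates 2 and 3 summed and 3 in limma-voom. It became 5 with the replicate block, with batch as a term, in batch 2 alone, and with replicates summed and batch as a term. With 1 library left out it was 1 to 4. Over all genes the calls, 878 higher and 1230 lower, became 358 and 544 at 0.01, 206 and 487 with replicates summed, 3669 and 3420 with replicates summed and batch as a term, 3587 and 3347 with the replicate block, 3604 and 3387 with batch as a term, 3041 and 3085 in batch 2 alone, and 4046 and 2528 with the replicate block plus GC and length correction; 1419 were higher at 0.1, and with 1 library left out 435 to 1284 were higher and 726 to 1726 lower. The share of higher calls was 41.7%, and 61.5% with the block plus GC and length correction. With that correction HOXA7 (edgeR adjusted p = 0.0619) lost the call it had with the replicate block. The PDGF difference of HOXC6 was -0.0088 to 0.37 with 1 library left out. Beyond the calls given with their comparison, the replicate block changed no call of a HOX gene or marker, or of a list gene named above.

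Between the batches, the 1 HOX gene called higher became 0 in DESeq2, at 0.01 and without the group term, and 0 to 1 with 1 library left out; the 1 called lower became 2 with at least 10 counts in every library, 2 at 0.1 and 0 without the group term. Over all genes, 1209 were higher and 998 lower with the GC and length correction, and 470 and 849 without the group term. Without normalization factors 59% of the batch calls were higher, against 48.8%, and the median of all genes was 0.11. The batch difference of HOXC10 was -0.0074 in DESeq2 and -1.11 to 0.73 with 1 library left out, that of HOXA9 was -0.048 to 0.43 and that of HOXC6 -0.013 to 0.35 with 1 left out, and with the GC and length correction HOXD10 was -0.10 and HOXD11 0.026. The interaction, with 0 genes called, gave 13 without the count filter and 0 to 49 with 1 of replicates 2 and 3 left out, an alternative chosen after the data were seen; leaving out replicate 1 leaves no estimate. The cause of these changes was not tested. Depth limits HOXB8, HOXC11 and the 4 members at 0, and HOXA4 and HOXC10 rest on 4 to 38 counts per library.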
